A study of Mus musculus with 14 samples.

Results

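The hepatocyte lineage transcription factors described here are 9 genes, Hnf4a, Foxa1, Foxa2, Foxa3, Onecut1, Cebpa, Cebpb, Nr5a2 and Prox1, picked by symbol from 54446 genes measured in mouse liver. All 9 passed the filter on low values, which left 23554 genes for testing. The KO livers came from 8 C57BL/6 mice with a floxed Mettl3 gene and Alb-Cre, and the WT livers from 6 C57BL/6 mice with the floxed Mettl3 gene and no Cre named in their labels, all 5 weeks old. Alb-Cre is a recombinase under the albumin promoter, so the deletion is directed to cells in which that promoter is or has been active, hepatocytes and their precursors, from which bile duct cells also descend. Which cells had lost the gene was not measured. Mettl3 encodes the enzyme that places the m6A mark on RNA. Total RNA of whole, flash-frozen liver was made into stranded libraries, and nothing in the labels states that replicates of a group came from separate litters, so p-values measure the spread between these libraries.

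Hepatocyte identity is held by a network of DNA-binding proteins that bind each other's regulatory regions as well as those of liver genes. FOXA proteins open chromatin early in liver development, HNF4A and the C/EBP proteins maintain the adult programme of secreted proteins and metabolic enzymes, and ONECUT1 (also called HNF6) acts in both hepatocytes and bile duct cells. NR5A2 (also called LRH-1) controls bile acid and cholesterol genes, and PROX1 marks hepatoblasts and hepatocytes and, outside the liver parenchyma, lymphatic endothelium.

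Each gene had a normalised estimated count per library, called its value below. The libraries held 11.1 to 30.9 M estimated reads in KO livers and 13.7 to 33.8 M in WT livers (M, megareads). Mettl3 had a lowest value of 76.9, a median of 99.1 and a highest value of 122 in KO livers, against 199, 219 and 263 in WT livers, and the groups did not overlap. Some libraries stood apart. KO 6 and KO 7 had 7.85% and 7.91% of their summed values in mitochondrial protein-coding RNA, against 2.77% to 5.47% in the other 12 libraries. KO 3, KO 6 and KO 7 had the highest summed values of 6 bile duct cell (cholangiocyte) markers, 3078, 2646 and 3527, while the other KO livers had 1073 to 1593 and WT livers 697 to 1247. As a share of the summed values of a library these markers did not overlap, at 0.00519% to 0.0191% in KO livers and 0.00278% to 0.00516% in WT livers. The lowest KO liver, KO 4, was close to the highest WT liver, WT 3. KO 4 had the most RNA of pancreatic acinar genes: its value of Pnlip, a pancreatic lipase, was 2238, against 1.34 to 11.3 in the other KO livers and 1.56 to 80.5 in WT livers. The summed values of 4 acinar markers were 4852 in KO 4, 68.5 to 144 in the other KO livers and 266 to 638 in WT livers. The labels gave no sex, and the libraries fell into classes of low Xist (KO 1 to 4, WT 1 to 4) and high Xist (KO 5 to 8, WT 5 and 6).

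Of 8 hepatocyte markers, 4 were lower in KO livers and 0 higher by limma, where 11% of all genes were lower and 11.5% higher. At an unadjusted p of at most 0.05, 6 were lower and 0 higher (16.3% and 18.7% of all genes). By the authors' deposited table, 2 were lower and 0 higher (8.26% and 8.82% of its genes). With every library scaled to the same sum outside ribosomal RNA 2 were lower, where 3.68% of all genes were. After quantile normalisation 0 were lower, where 10.2% of all genes were. In that setting 1 was higher (Serpinc1, named after its values were seen), where 2364 of 23554 genes were. The count thus rests on the deposited scaling. Their summed values did not overlap on that scaling, at 475440 to 843840 in KO livers and 877620 to 1025600 in WT livers. As a share of the summed values of a library they overlapped, at 2.58% to 4.29% in KO livers and 3.35% to 4.38% in WT livers. All 8 were detected in every library. Of the 6 cholangiocyte markers, Sox9 (log2 1.70), Epcam (1.31) and Spp1 (1.17) were higher in KO livers by limma. Epcam kept its call in 6 of 14 fits that each left out 1 library, and without KO 3, 6 and 7 its change was 0.59 (adjusted p = 0.186); it was not called after quantile normalisation (adjusted p = 0.0653). Of 5 endothelial markers, Clec4g (-0.54) and Kdr (-0.36, which kept its call in 2 of 14 such fits) were lower, and with equal sums neither was called (-0.20 and -0.02). By limma no marker of lymphatic endothelium (3 tested), Kupffer cells (5), stellate cells (5), neutrophils (2 tested of 4), lymphocytes (4) or erythroid cells (3) passed the test. At an unadjusted p of at most 0.05 these 6 lists had 1 such marker, Dcn of stellate cells (lower, named after its values were seen). By the authors' deposited table they had 0. With equal sums, where 33.3% of all genes were higher, Ms4a1 of lymphocytes and Lrat of stellate cells were called higher (both named after their values were seen). The acinar marker Cela1 was lower (-1.52), kept its call in 3 of 14 fits and lost it with equal sums (adjusted p = 0.0630). The part of these cell types in the results below was not tested, and in whole liver fewer cells of a type and less RNA per cell cannot be told apart.

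By limma, 5 of the 9 factors were lower in KO livers (Onecut1, Foxa3, Foxa1, Hnf4a and Prox1) and 0 were higher. Among all genes tested 11% were lower and 11.5% higher. At an unadjusted p of at most 0.05 the counts were 6 lower and 0 higher, where 16.3% of all genes were lower and 18.7% higher. In the authors' deposited table the q values also put 5 of the 9 lower and 0 higher, where it put 8.26% of its genes lower and 8.82% higher. The values of 2 factors, Hnf4a and Foxa3, did not overlap between the groups on the deposited scaling, while 4.02% of all genes tested were lower without overlap. With equal sums outside ribosomal RNA the values of all 9 factors overlapped, but the share of all genes without overlap was not computed there. In that setting 3.68% of all genes were called lower. The median log2 change was -0.52 over the 9 factors and 0.05 over all genes tested.

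**Figure D1:**
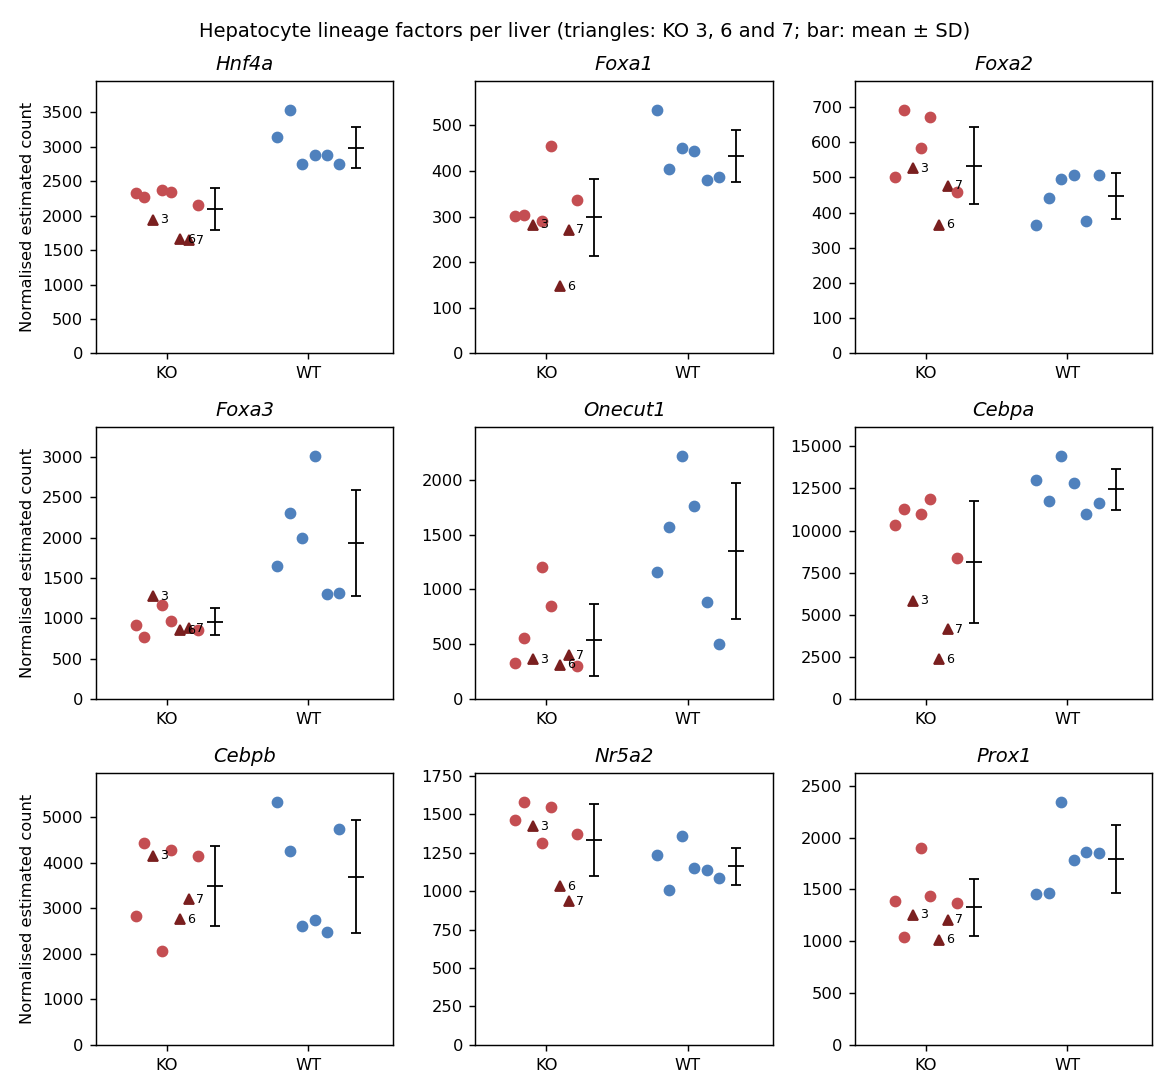
Normalised estimated count (vertical axis) of each factor in each liver, KO on the left and WT on the right of each panel, with the mean and SD beside the points; KO 3, 6 and 7 are numbered triangles. Hnf4a and Foxa3 are lower in all 8 KO livers than in any WT liver, and the spread of Cebpa in KO livers comes with low values in KO 6, KO 7 and KO 3.

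The promoters of these genes were read as the base letters around each RefSeq start site (250 bases before it and 50 after), and all 9 genes had an entry, with 14 promoters in all. The 250 bases before the start site are shown for the factors that were lower in KO livers, 1 promoter each, because these are the windows in which letters bound by members of the same network can be looked for. They come from RefSeq on GRCm38.p6, are written 5′ to 3′ on the strand of the gene, and capitals mark matches to a motif. For Hnf4a the first promoter is shown, although adult hepatocytes use the second.

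Hnf4a, first promoter, chr2:163506607-163506856, plus strand: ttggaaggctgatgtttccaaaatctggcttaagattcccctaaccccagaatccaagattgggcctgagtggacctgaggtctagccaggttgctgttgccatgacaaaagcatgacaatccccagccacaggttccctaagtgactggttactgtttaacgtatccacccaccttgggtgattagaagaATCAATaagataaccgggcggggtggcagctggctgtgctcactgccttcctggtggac
Foxa1, chr12:57546112-57546361, minus strand: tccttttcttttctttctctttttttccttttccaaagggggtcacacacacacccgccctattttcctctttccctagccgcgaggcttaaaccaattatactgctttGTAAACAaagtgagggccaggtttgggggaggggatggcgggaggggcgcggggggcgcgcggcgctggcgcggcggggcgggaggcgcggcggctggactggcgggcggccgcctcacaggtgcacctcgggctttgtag
Foxa3, chr7:19023540-19023789, minus strand: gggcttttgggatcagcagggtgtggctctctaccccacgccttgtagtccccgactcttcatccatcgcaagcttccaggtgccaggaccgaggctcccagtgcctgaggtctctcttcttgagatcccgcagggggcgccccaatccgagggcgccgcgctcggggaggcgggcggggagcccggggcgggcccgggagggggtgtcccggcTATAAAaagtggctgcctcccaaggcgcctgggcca
Onecut1, chr9:74861671-74861920, plus strand: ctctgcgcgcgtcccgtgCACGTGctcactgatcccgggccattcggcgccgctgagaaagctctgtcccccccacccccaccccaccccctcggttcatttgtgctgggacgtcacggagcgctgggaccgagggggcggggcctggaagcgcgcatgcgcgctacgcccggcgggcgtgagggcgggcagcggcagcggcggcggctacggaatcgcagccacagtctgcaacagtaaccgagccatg
Prox1, first promoter, chr1:190170828-190171077, minus strand: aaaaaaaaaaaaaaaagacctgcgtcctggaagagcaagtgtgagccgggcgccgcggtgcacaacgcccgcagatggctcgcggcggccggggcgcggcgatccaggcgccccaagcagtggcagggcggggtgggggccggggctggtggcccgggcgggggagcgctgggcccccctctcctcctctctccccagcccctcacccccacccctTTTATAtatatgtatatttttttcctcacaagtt

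The search covered 8 motifs on both strands. General promoter motifs were the TATA box, written TATAAA, and the E-box that many basic helix-loop-helix proteins recognise, written CACGTG. Motifs of the network were an HNF4 motif (CAAAGTCC), a C/EBP motif (TTGCNNCAA) and an NR5A motif (CAAGGTCA). For forkhead proteins the letters searched were TGTTTAC, while for ONECUT1 (HNF6) the search used the core ATCAAT. The last motif was the DR1 repeat read by nuclear receptors. The first Hnf4a promoter held the HNF6 letters once, beginning 59 bases before the start, and 7.54% of all 32851 promoters in the table held them. The second Hnf4a promoter, the one used by adult hepatocytes, held 0 matches to any of the 8 motifs. The Foxa1 promoter held the FOXA letters on the opposite strand at 141 bases before the start, which 3.65% of promoters did. Foxa3 had a TATA box beginning 36 bases before its start, and in the first Prox1 promoter the TATA letters lay on the opposite strand at 34 bases; 13.6% of promoters held them. The Onecut1 promoter held an E-box at 232 bases before the start, as 7.15% of promoters held one. Factors that were not called lower also held matches. The first Foxa2 promoter held the HNF6 letters on the opposite strand at 213 bases before the start. TATA letters lay at 30 bases before the start in Cebpa and from base +22 in Cebpb. On the opposite strand they lay at 208 bases before the start in the third Foxa2 promoter and at 181 bases in the first Nr5a2 promoter. The DR1 repeat was in 0.0396% of promoters, the HNF4 letters in 1.42%, the C/EBP letters in 2.08% and the NR5A letters in 1.56%, and none of the 14 promoters of the factors held any of them. A match is a description of letters and was not tested as a binding site.

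Hnf4a encodes the nuclear receptor HNF4A, which drives the apolipoprotein, coagulation and urea cycle genes of hepatocytes, and lies at GRCm38 chr2:163506808-163572910 (plus strand). Of its promoters the second, which held 0 matches to the motifs searched, is the one used by adult hepatocytes, and values per gene do not separate them. Its values in KO livers had a lowest of 1648, a median of 2217 and a highest of 2377, against 2747, 2883 and 3533 in WT livers. Every KO liver was below every WT liver, and KO 6 and KO 7 were the lowest. The mean was 2093 ± 305 (SD, n = 8) in KO livers and 2991 ± 301 (SD, n = 6) in WT livers, a fold of 0.696 (95% interval 0.593 to 0.817). The log2 change was -0.52 (SE 0.11, adjusted p = 0.00303 by limma). It remained called without KO 3, 6 and 7, at -0.37 (adjusted p = 0.00868).

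Foxa3, a forkhead factor that contributes to glucose transporter and gluconeogenic gene expression in adult liver, lies at chr7:19013284-19023538 (minus strand). Its values ran at 766, 899.6 and 1275 (lowest, median, highest) in KO livers, against 1299, 1826 and 3011.5 in WT livers. The groups did not overlap, but the highest KO liver, KO 3, was close to WT 5 and WT 6, the lowest of the WT livers. The mean was 961 ± 172 (SD, n = 8) in KO livers and 1931 ± 659 (SD, n = 6) in WT livers, a fold of 0.515 (95% interval 0.395 to 0.671). In limma this gave an adjusted p of 0.00155, and without KO 3, 6 and 7 the log2 change was -0.99 (adjusted p = 0.00547).

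Foxa1, a pioneer factor that opens chromatin together with FOXA2, lies at chr12:57540628-57546916 (minus strand). In KO livers its lowest value was 147, its median 296 and its highest 456, against 379.6, 424 and 533 in WT livers. In 7 of 8 KO livers Foxa1 was below every WT liver, KO 5 lay within the WT range, and KO 6 was the lowest. The log2 change was -0.58 (SE 0.18, adjusted p = 0.0328 by limma), with means of 298 ± 84.7 (SD, n = 8) in KO livers and 433 ± 57.1 (SD, n = 6) in WT livers. The call was lost without KO 3, 6 and 7 (-0.37, adjusted p = 0.0710), and also when KO 3, KO 7, WT 1, WT 3 or WT 4 alone was left out (adjusted p between 0.0512 and 0.0761).

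Foxa2, the FOXA member with roles in bile acid and fasting responses, lies at chr2:148042877-148046969 (minus strand) and did not pass the test. Its values were 365, 514 and 691 (lowest, median, highest) in KO livers, against 364, 468 and 507 in WT livers. The groups overlapped, and 4 of 8 KO livers lay above every WT liver. Means were 534 ± 109.8 (SD, n = 8) in KO livers and 448 ± 65.4 (SD, n = 6) in WT livers, with a log2 change of 0.24 (95% interval -0.06 to 0.54, limma adjusted p = 0.252).

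Onecut1 encodes a cut-homeodomain factor that acts on glucose metabolism genes and on bile duct formation, and lies at chr9:74861921-74891781 (plus strand). It had the largest log2 change of the 9 factors, -1.35 (SE 0.36, adjusted p = 0.0140 by limma). Its values were 302, 382 and 1202 (lowest, median, highest) in KO livers, against 504, 1367 and 2216 in WT livers. In 5 of 8 KO livers it was below every WT liver, while KO 4 and KO 5 reached 1202 and 848 and overlapped the WT livers, of which WT 6 was the lowest. The means were 539 ± 324 (SD, n = 8) in KO livers and 1350.5 ± 623 (SD, n = 6) in WT livers, a fold of 0.392 (95% interval 0.230 to 0.667). Without KO 4, the library with the most acinar RNA, the log2 change was -1.54 (adjusted p = 0.00380). Without KO 3, 6 and 7 it was -1.11 and not called (adjusted p = 0.0841).

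Cebpa, which encodes the basic leucine zipper factor C/EBPα that maintains glycogen, gluconeogenic and urea cycle genes, lies at chr7:35119293-35121928 (plus strand) and did not pass. Its values were 2369.7, 9373 and 11898 (lowest, median, highest) in KO livers, against 11005, 12293 and 14428 in WT livers. In 6 of 8 KO livers Cebpa was below every WT liver, but they were uneven: KO 6 had 2369.7, KO 7 had 4147 and KO 3 had 5852, while the other 5 had 8391 to 11898. The coefficient of variation was 44.3% in KO livers and 9.88% in WT livers. The log2 change was -0.78 (95% interval -1.45 to -0.11, limma adjusted p = 0.0872), and it was -0.24 (adjusted p = 0.154) without KO 3, 6 and 7. KO 3, KO 6 and KO 7 were also the livers with the highest cholangiocyte marker sums. On the deposited scaling they had the lowest hepatocyte marker sums (475440 to 547680, against 652560 to 843840 in the other KO livers). As a share of the summed values of a library, hepatocyte markers were lower in KO 4 (3.16%) than in KO 3 (3.25%), with KO 6 at 2.69% and KO 7 at 2.58%. The part of either marker set in the Cebpa values was not tested.

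Cebpb, the acute phase and regeneration counterpart of Cebpa, lies at chr2:167688915-167690418 (plus strand). Its values were 2062, 3681 and 4442 (lowest, median, highest) in KO livers, against 2480.2, 3499 and 5339.7 in WT livers. The groups overlapped through most of their range, and both were wide. The log2 change was -0.06 (95% interval -0.52 to 0.40, limma adjusted p = 0.872).

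Nr5a2, the bile acid and cholesterol regulator, lies at chr1:136842571-136960448 (minus strand). In KO livers its lowest, median and highest values were 934, 1399 and 1582, against 1006, 1143.5 and 1357 in WT livers. In 5 of 8 KO livers Nr5a2 was above every WT liver, and in KO 7 it was below every WT liver, with KO 6 the next lowest KO liver. Means were 1334 ± 234.5 (SD, n = 8) in KO livers and 1162 ± 121 (SD, n = 6) in WT livers, a log2 change of 0.18 (95% interval -0.08 to 0.45, limma adjusted p = 0.314). Without KO 3, 6 and 7 the change was 0.33 and passed (limma adjusted p = 0.0266), but this fit leaves out KO 6 and KO 7, the lowest KO livers for Nr5a2.

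Prox1, a homeodomain factor known as a corepressor of HNF4A and NR5A2, lies at chr1:190118035-190170714 (minus strand). It had 1013, 1312 and 1898 as lowest, median and highest values in KO livers, against 1459, 1819 and 2345 in WT livers. Prox1 was below every WT liver in 7 of 8 KO livers, and KO 4 lay within the WT range. Means were 1326 ± 278 (SD, n = 8) in KO livers and 1795 ± 325 (SD, n = 6) in WT livers, and the log2 change was -0.44 (SE 0.14, adjusted p = 0.0350 by limma). It was not called in 8 of the 14 fits that each left out 1 library (KO 2, 3, 6 or 7, or WT 3, 4, 5 or 6; adjusted p between 0.0566 and 0.0879). Without KO 3, 6 and 7 it was -0.34 (adjusted p = 0.150), and without KO 4 -0.52 (adjusted p = 0.00911).

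An antisense gene accompanied 2 of the factors. Prox1os, at chr1:190170296-190217276 (plus strand), begins 418 bases from the start of Prox1 and runs the other way, sharing 133 exonic bases with it. It had 13.1, 36.2 and 46.8 (lowest, median, highest) in KO livers, against 71.4, 95.8 and 136 in WT livers. All 8 KO livers were below all WT livers, at a log2 difference of -1.64 (SE 0.26, adjusted p = 0.000487 by limma), larger in size than the change of Prox1. Hnf4aos, at chr2:163493807-163541720 (minus strand), overlaps 34913 bases of the Hnf4a gene but none of its exonic bases. It had 36.4, 27.9 and 34.5 in KO 3, KO 6 and KO 7, 124 to 168 in the other 5 KO livers and 75.5 to 137 in WT livers. Over all 14 libraries its log2 change was -0.10 (limma adjusted p = 0.890), and without KO 3, 6 and 7 it was 0.70 (limma adjusted p = 0.0106). The livers left out are those with the lowest Hnf4aos values. Leaving them out therefore raises the KO mean and narrows its spread, and no conclusion is drawn from that p-value. The strand setting of the counting was not given in the sources used here, so reads of Prox1 and Prox1os cannot be told apart where their exons overlap.

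The changes depended on how libraries were scaled to each other. Summed values were 19.1 M ± 1.37 (SD, n = 8) in KO livers and 24.1 M ± 2.43 (SD, n = 6) in WT livers. When every library was scaled to the same sum outside ribosomal RNA, all genes together had a median change of 0.38 instead of 0.05 (log2), and Foxa3 (-0.62, adjusted p = 0.0129) and Onecut1 (-1.01, adjusted p = 0.0275) remained called lower. Hnf4a (-0.18), Foxa1 (-0.24) and Prox1 (-0.11) were then not called, and Foxa2 (0.58, adjusted p = 0.00584) and Nr5a2 (0.52, adjusted p = 0.00268) were called higher, in a setting where 33.3% of all genes were higher and 3.68% lower. After quantile normalisation, with 10.2% of all genes lower, Foxa3, Onecut1 and Foxa1 remained called lower, and Hnf4a (-0.32, adjusted p = 0.0546) and Prox1 (-0.32, adjusted p = 0.113) did not. Without KO 3, 6 and 7, Hnf4a and Foxa3 were called lower and Nr5a2 higher, where 9.24% of all genes were lower and 9.19% higher.

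**Figure D2:**
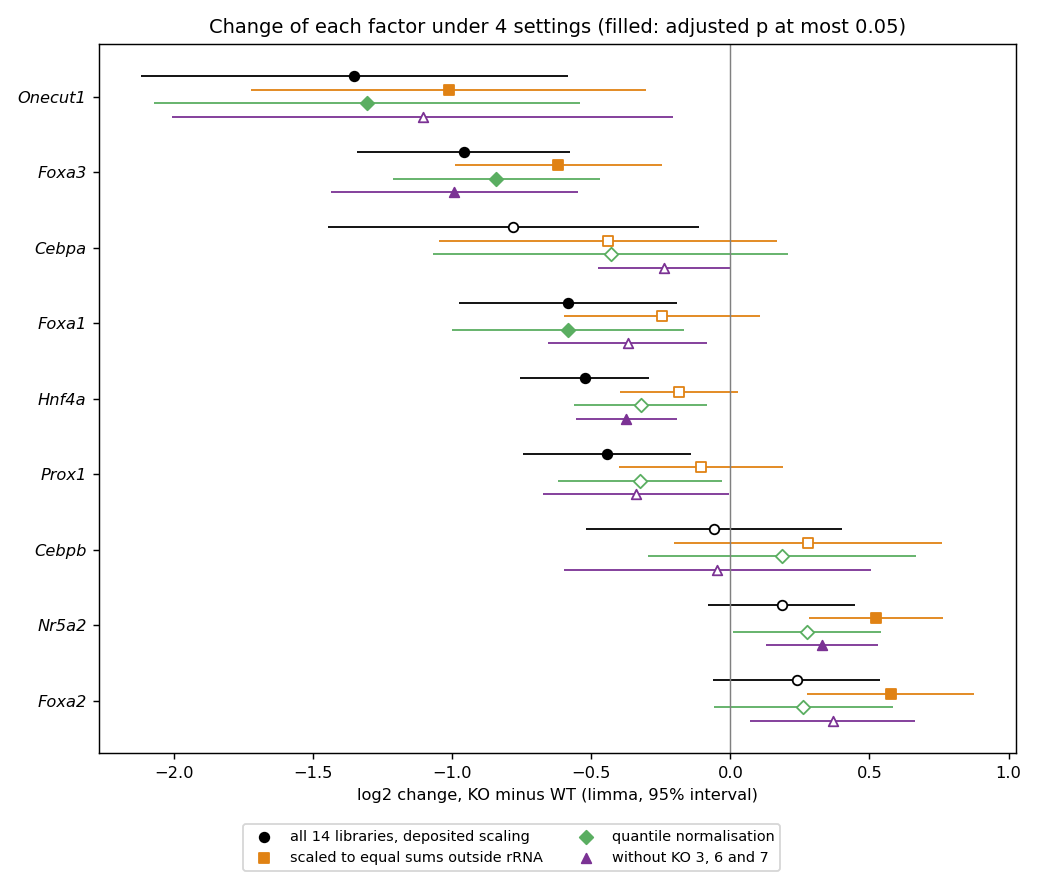
Log2 change of each factor, KO minus WT, with its 95% interval (horizontal axis) in 4 settings; filled symbols have a limma adjusted p of at most 0.05. Foxa3 is filled in all 4 settings and Onecut1 in 3 of 4, and the 2 factors at the bottom, Nr5a2 and Foxa2, lie above 0 in every setting.

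Ratios between factors within 1 library do not change when its values are multiplied by 1 factor, as with equal sums, but they can change with quantile normalisation. They are descriptions, with no test and no share over other gene pairs. The log2 ratio of Foxa3 to Foxa2 was 0.85 ± 0.37 (SD, n = 8) in KO livers and 2.05 ± 0.43 (SD, n = 6) in WT livers. Foxa3 values were 1.11 to 2.42 times those of Foxa2 in KO livers and 2.59 to 5.93 times in WT livers, with no overlap, although after quantile normalisation this ratio did overlap, at a log2 difference of -1.10 between the means in place of -1.20. The log2 ratio of Foxa1 to Foxa2 was -0.87 ± 0.30 in KO livers and -0.05 ± 0.32 in WT livers, again with no overlap (also after quantile normalisation), so that within the FOXA family Foxa2 made up more of the summed signal in KO livers.

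Nr5a2 stood at 0.553 to 0.733 of the Hnf4a value in KO livers and at 0.285 to 0.494 in WT livers, with no overlap. KO 3 had the highest ratio, and KO 6 and KO 7 lay within the range of the other KO livers. The difference between the group means of the log2 ratio was 0.71, and 0.60 after quantile normalisation, where the groups again did not overlap. The ratio of Cebpb to Cebpa overlapped, at log2 -1.09 ± 0.86 in KO livers and -1.81 ± 0.53 in WT livers. KO 6 was the only library in which Cebpb had the higher value of the pair (ratio 1.17). The ratios of Foxa3, Cebpa, Onecut1 and Prox1 to Hnf4a all overlapped between the groups.

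**Figure D3:**
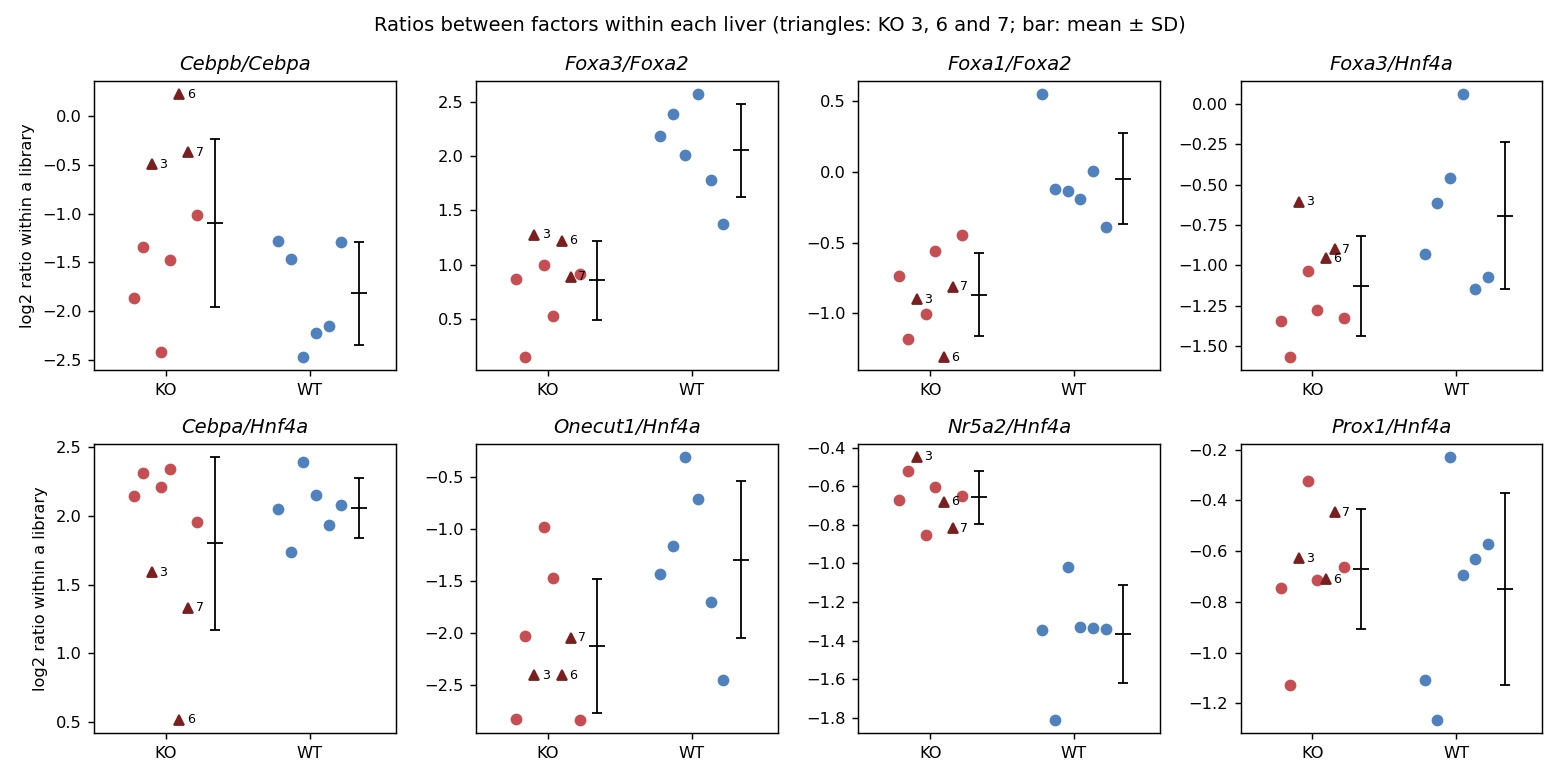
Log2 ratio of the values of 2 factors within each library (vertical axis), KO on the left and WT on the right of each panel, with mean and SD; KO 3, 6 and 7 are numbered triangles. Foxa3/Foxa2, Foxa1/Foxa2 and Nr5a2/Hnf4a separate the groups without overlap on the deposited scaling, and the other 5 ratios overlap.

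Divided by transcript length, the level of the factors in KO livers was highest for Cebpa, at 3107 ± 1376 per kb (SD, n = 8), and lowest for Foxa1, at 93.5 ± 26.5. In WT livers the same genes were at the ends, at 4739.9 ± 468 and 136 ± 17.9 per kb (SD, n = 6). Hnf4a and Foxa3 lay close together in KO livers (479.8 and 472 per kb), while in WT livers Foxa3 was above Hnf4a (948 and 686 per kb), with ranges that overlapped. Onecut1 was in 8th place among the 9 in KO livers, at 136 per kb, and in 5th place in WT livers, at 341 per kb. Neighbours in the WT order from Onecut1 through Nr5a2 and Prox1 to Foxa2 overlapped in range, so their order there does not stand beyond the spread. In KO livers the range of Onecut1 (76.4 to 304 per kb) overlapped those of Foxa1 (46.0 to 143) and Prox1 (128 to 240). The KO places of Onecut1 and Foxa1 therefore do not stand beyond the spread either.

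**Figure D4:**
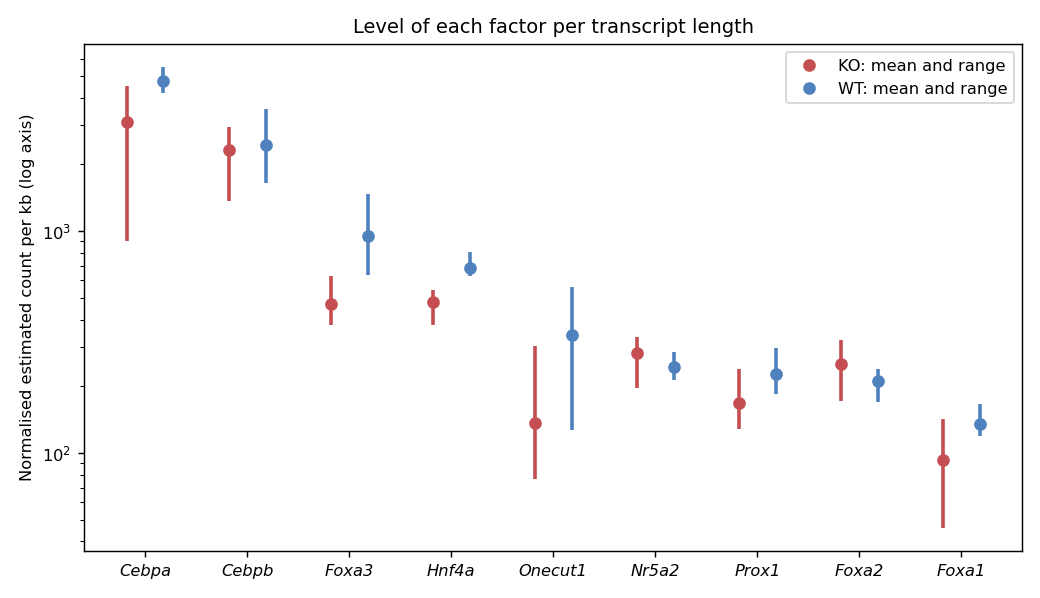
Normalised estimated count per kb of the longest coding transcript (vertical log axis) for each factor, mean (point) and range (line), KO left of WT, in the order of the WT means. Onecut1 and Foxa3 show the widest gap between the means of the groups.

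Within the low Xist libraries alone (KO 1 to 4 and WT 1 to 4), 4 factors were lower, against 8.3% of all genes: Onecut1 (-1.62), Foxa3 (-1.11), Foxa1 (-0.63) and Hnf4a (-0.46). In the high Xist libraries (KO 5 to 8, WT 5 and 6) limma called 0 (0.2% of all genes were lower and 0.73% higher), at changes of -0.55 for Foxa3, -0.55 for Hnf4a and -0.58 for Prox1, and the 95% intervals of these 3 factors lay below 0. A limma test of the difference between the classes called 0 of the 9 (adjusted p 0.824 to 0.953), where it called 13 of 23554 genes. At an unadjusted p of at most 0.05 it also had 0 of the 9. With so few genes called, these counts do not show that the classes were alike. The high Xist libraries were shallower, with a mean of 13.9 M estimated reads (SD 3.07 M, n = 6) set against 29.2 M (SD 3.47 M, n = 8).

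As deviations from the mean of their own group over 14 libraries, which share their depth and any error of scaling, Hnf4a and Cebpa (Pearson r = 0.82), Cebpa and Foxa1 (0.82) and Cebpa and Nr5a2 (0.80) went together most closely of the 36 pairs of factors. These values rest in part on KO 3, 6 and 7: over the 11 libraries without them r was 0.08 for Hnf4a and Cebpa, 0.43 for Cebpa and Foxa1 and 0.64 for Cebpa and Nr5a2, and in the 6 WT livers alone it was -0.22, 0.71 and 0.80 in the same order. Cebpb and Prox1 ran opposite, at -0.56 over all libraries and -0.74 without KO 3, 6 and 7. The genes most alike to each factor, among 15523 protein-coding genes tested, were Mob2 and Tesk2 for Hnf4a (r = 0.92 each), Wfdc21 and Fpgs for Cebpa (0.97 and 0.96, but 0.55 and 0.38 without KO 3, 6 and 7), Mknk2 and Adm for Cebpb (0.87 and 0.83) and Slc25a38 and Ccdc85b for Foxa1 (0.95 and 0.94). They were Phlda1 and Ccno for Foxa2 (0.93 and 0.88), Slc30a1 and Tdg for Foxa3 (0.92 each), Ficd and Uggt1 for Onecut1 (0.88 each), Hdac11 and Tcea3 for Nr5a2 (0.94 and 0.92) and Rnf43 and Fastkd1 for Prox1 (0.83 each).

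Among 26 other transcription factors of liver, 9 were lower and 1 was higher, where 11% of all genes were lower and 11.5% higher. Their median log2 change was -0.29. With equal sums 5 were lower and 7 higher, where 3.68% of all genes were lower and 33.3% higher. The median of the list was then 0.05, beside 0.38 for all genes. Nr1i3, the xenobiotic receptor CAR, had 822 to 2353 in KO livers against 3148 to 6310 in WT livers, a log2 change of -1.42 (limma adjusted p = 0.00157). Mlxipl, which encodes the glucose sensor ChREBP, fell by 1.14 on the log2 scale, and Onecut2, a relative of Onecut1, fell by 0.97. Onecut2 was below every WT liver in all 8 KO livers, at 1207 to 1860 against 2273 to 3616, and was called lower in every fit that left out 1 library. The factor that was higher, Gata6 (0.64, 205 to 383 in KO livers against 147 to 183 in WT livers), was named after its values were seen. Of 9 family relatives of the factors Onecut2 alone passed on the deposited scaling, as lower. With equal sums Nr5a1 and Cebpg (named after their values were seen) were called higher, where 33.3% of all genes were.

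Known target genes were taken from lists of the factors, 30 genes in all, which were drawn up from general knowledge of liver. The lists share genes: Alb, Ttr, Apob, Tat and Cps1 are also hepatocyte markers, and Nr1i2 and Nr0b2 are also among the other factors. The counts of these lists are therefore not separate results. By limma 15 were lower and 0 higher, at a median log2 change of -0.58, where 11% of all genes were lower and 11.5% higher. At an unadjusted p of at most 0.05 the counts were 20 lower and 1 higher (Hp), where 16.3% of all genes were lower and 18.7% higher. In the authors' deposited table, Hp was likewise higher and 14 targets were lower, where it put 8.82% of its genes higher and 8.26% lower. Of 8 HNF4A targets 5 were lower, with the largest changes in Otc (-0.86), F9 (-0.66) and Mttp (-0.56), which encode a urea cycle enzyme, a clotting factor and the lipid transfer protein of lipoprotein assembly. Of 6 C/EBPα targets 4 were lower, led by the glycogen synthase Gys2 (-1.65), the gluconeogenic enzyme Pck1 (-1.42) and albumin, Alb (-1.07). Alb also carries the promoter that drives the Cre.

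Of 3 targets of C/EBPβ 0 passed in limma (at an unadjusted p of at most 0.05, 1 was higher and 1 lower), and the smallest p was that of haptoglobin, Hp (0.67, limma adjusted p = 0.0586), at 46835 to 116600 in KO livers and 29485 to 63554 in WT livers. Hp was called higher without KO 6 or without KO 7, and without KO 3, 6 and 7 (0.80, adjusted p = 0.0202). It was also called higher with equal sums (1.01, adjusted p = 0.00285) and after quantile normalisation (1.30, adjusted p = 0.000438). Of 6 FOXA targets 3 were lower, Pck1, transthyretin (Ttr, -0.69) and the glucose transporter Slc2a2 (-0.58), and of 3 ONECUT1 targets Ttr and Slc2a2, which are in both lists. The authors' deposited table put 2 of the FOXA targets and 1 of the ONECUT1 targets lower. Slc2a2 lost its call in 7 of 14 fits that left out 1 library. Of 8 NR5A2 targets 4 were lower, led by the sterol hydroxylases Cyp8b1 (-1.77) and Cyp7a1 (-1.15) and the sterol transporter Abcg8 (-1.12), although Nr5a2 itself did not pass. Without KO 3, 6 and 7, Pck1 (adjusted p = 0.0541) and Slc2a2 (0.165) were not called. With equal sums outside ribosomal RNA the calls of F9, Mttp, Ttr and Slc2a2 were lost. In that setting 8 of the 30 targets were lower and 2 higher, where 3.68% of all genes were lower and 33.3% higher. After quantile normalisation 7 targets were lower, where 10.2% of all genes were, and 1 was higher, where 2364 of 23554 genes were. Alb (-0.63, adjusted p = 0.0857), Pck1 (-0.91, adjusted p = 0.0707), F9, Ttr and Slc2a2 were then not called. In that setting 0 of the FOXA and 0 of the ONECUT1 targets were lower.

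**Figure D5:**
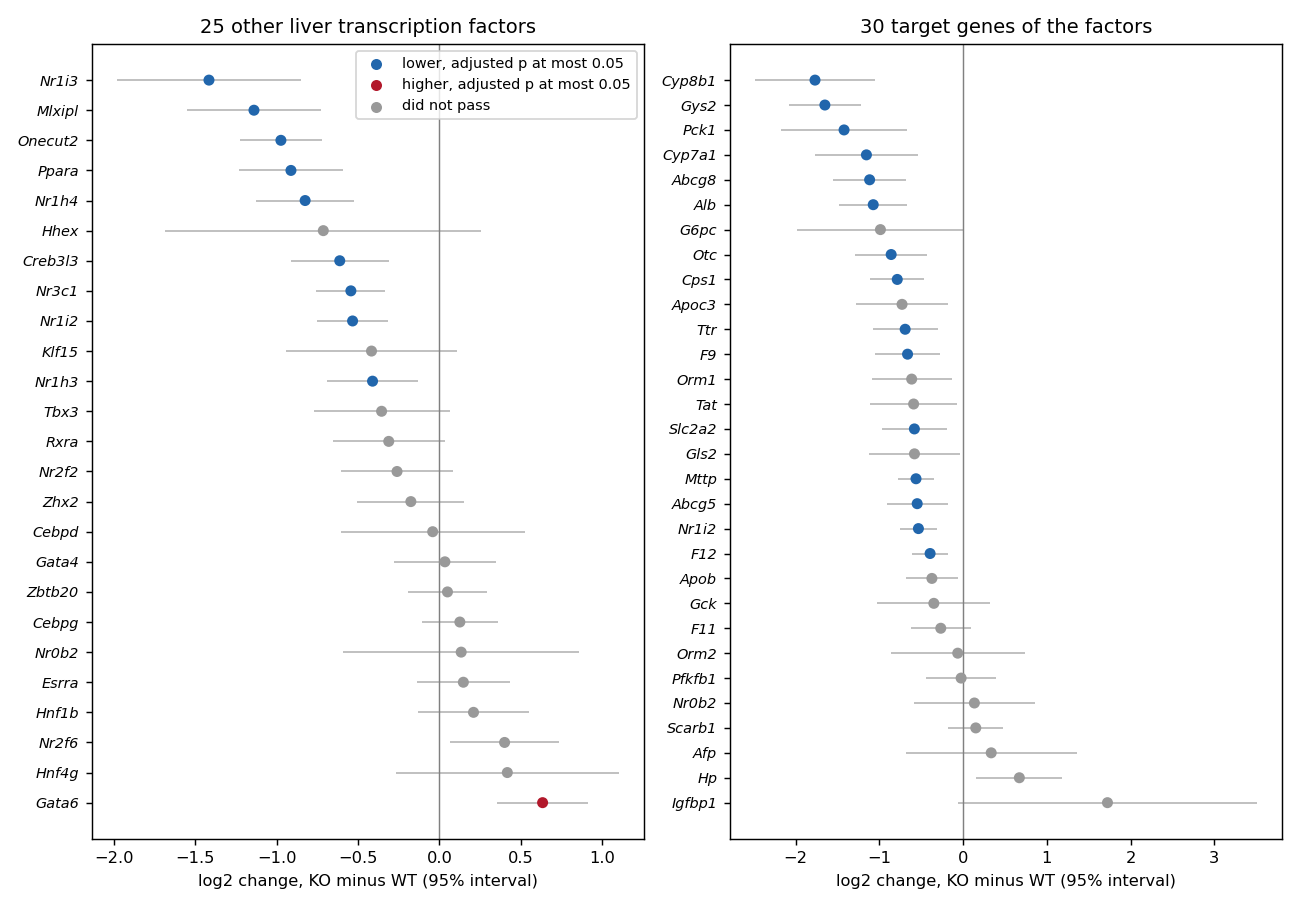
Log2 change, KO minus WT, with its 95% interval (horizontal axis) for 25 of the 26 other liver transcription factors (left) and 30 target genes of the factors (right), coloured by the limma call at an adjusted p of at most 0.05. Of the other factors 9 are lower and 1, Gata6, is higher, and of the targets 15 are lower and 0 higher. Among all genes tested 11% are lower and 11.5% higher.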

How the data were processed

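Total RNA of 14 livers was sequenced, 8 KO and 6 WT, grouped by the genotype and titles in the labels. Per the submitters' processing notes, kallisto and sleuth were used with mm10; no versions were given. The signal values that the authors deposited are normalised estimated counts per gene, divided by 1 size factor per library, so depth differences remain in the precision of low values. For each gene the authors also deposited the p-value and q-value of a sleuth Wald test. Their deposited change is a natural log of WT minus KO and was not used as a log2 value. The table's 75859 lines were reduced to 54446 genes.

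The test was a limma fit (version 3.58.1, R 4.3.3) of log2(value + 1), KO minus WT, using the trend option of its moderated variance; 23554 genes reached 10 in 6 or more libraries and were tested; a log2 change on this scale understates the change of low genes. Benjamini-Hochberg adjustment ran over these genes, and calls were made up to an adjusted p of 0.05. Depth in estimated reads was the sum of values divided by the worth of 1 read, the most frequent low value. Tables and figures were made in Python 3.11.15 with pandas 2.3.3, numpy 2.4.6 and matplotlib 3.10.9, and the pipeline was tested on simulated data. Positions are from GENCODE M21 on GRCm38 and promoters from RefSeq on GRCm38.p6. The members and lists were chosen with earlier results of these data known. The genes named were Mettl3, the members, from each other list of factors or targets the 3 called genes of largest change or the gene of smallest p, the 2 most similar genes per member, and antisense genes named after a member; cell type marker lists are given as counts and called genes. Alternatives were a pseudocount of 0.1, no filter, the authors' q, equal sums outside ribosomal RNA, quantile normalisation, Xist class as covariate or alone, the replicate number as a block, each library left out, and KO 3, 6 and 7 left out. The labels do not set KO 3, 6 and 7 apart from the other KO livers, so leaving them out rests on values of these same data. Marker sums as shares of a library, overlap of values with equal sums, ratios after quantile normalisation and correlations without KO 3, 6 and 7 were added after seeing the data. The values of 1 gene of the list of other liver factors, which is included in its counts, are not reported here.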

Additional observations from a re-analysis of the deposited data

How the results depend on the processing

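The log2 changes of Hnf4a (-0.55 to -0.47), Foxa3 (-1.06 to -0.82) and Onecut1 (-1.61 to -1.18) kept their direction and call in all 14 fits that left out 1 library. In those fits Foxa1 ran from -0.68 to -0.45 and Prox1 from -0.52 to -0.36, Cebpb from -0.16 to 0.060 and Hnf4aos from -0.24 to 0.12. Members called lower ran from 3 to 5 (3 without KO 3, KO 7, WT 3 or WT 4), where 8.66% to 11.9% of all genes were lower. Other factors called higher ran from 1 to 2 and targets called higher from 0 to 1, where 2189 to 2863 of 23554 genes were higher. With no filter 3 members were lower, where 4.04% of all genes were (Foxa1 -0.58, adjusted p = 0.0701; Prox1 -0.44, adjusted p = 0.0731). With equal sums outside ribosomal RNA, 7833 genes were higher and 866 lower, 2 members were higher and 2 lower, 7 other factors higher and 5 lower, and 2 targets higher and 8 lower; Hnf4a was -0.18, Foxa1 -0.24, Prox1 -0.11, Foxa2 0.58, Nr5a2 0.52, Cebpb 0.28 and Hnf4aos 0.23. After quantile normalisation 3 members were lower, 2 other factors higher, 1 target higher and 7 lower. In that setting 10.2% of all genes were lower and 2364 of 23554 were higher. Hnf4a was then at -0.32, Prox1 at -0.32 and Cebpb at 0.19. In low Xist libraries 1740 genes were higher, Prox1 was -0.34, Hnf4aos 0.13, and 1 target was higher and 9 lower, where 8.3% of all genes were lower. In high Xist libraries 172 genes were higher and 47 lower, and 0 members, 0 other factors and 0 targets were called, with Hnf4a -0.55, Foxa1 -0.45, Foxa3 -0.55, Onecut1 -0.66, Prox1 -0.58 and Cebpb 0.045. Without KO 3, 6 and 7, 1 member was higher and 2 lower, and 2 other factors and 1 target were higher. In that setting 9.19% of all genes were higher and 9.24% lower. Foxa1 was -0.37, Onecut1 -1.11, Prox1 -0.34, Nr5a2 0.33 and Hnf4aos 0.70. The Xist covariate and the authors' q each put 1 target higher, where 2807 of 23554 genes and 8.82% of the authors' genes were higher. Replicate numbers were not taken as pairs, since the labels give them no meaning and not every pair correlated above 0.1: same-numbered livers correlated at 0.07 to 0.23 in their deviations, 5 of 6 above 0.1, and as a hint from the data 3 of 6 KO livers correlated best with their own number. With the replicate block over numbers 1 to 6, 3 members were lower (8.19% of all genes) and 1 target higher (2031 of 23554 genes). Foxa1 was -0.61 (limma adjusted p = 0.0544), Prox1 -0.44 (0.0762) and Hnf4aos 0.016. The same 12 libraries without the block, a setting added after seeing the data, gave 3 members lower (9.10% of all genes) and 1 target higher (2184 of 23554 genes). Foxa1 was then -0.61 (limma adjusted p = 0.0572), Prox1 -0.44 (0.0767) and Hnf4aos 0.016. The causes were not tested. The shallow libraries, down to 11.1 M estimated reads, limit genes of low value such as Prox1os.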
